A study of Mus musculus with 4 samples.

Results

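The genes described here are 8 homeobox genes associated with the proximal part of the vertebrate limb: Meis1, Meis2, Meis3, Pbx2, Pbx3, Shox2, Irx3 and Irx5. They were chosen by name, with no threshold on a measured value, and they are 8 of the 22367 protein-coding genes of the GENCODE M1 annotation. For each gene, peak summits within 1 kb of an annotated transcription start were taken as promoter summits, and summits within 100 kb of the gene body as its landscape. All 8 genes were found in the annotation, and their landscapes cover 2.18 Mb in total.

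The summits come from ATAC-seq, an assay in which the Tn5 transposase inserts adapters into accessible DNA, on forelimb and hindlimb cells of mouse embryos at E11.5. The study concerns Maenli, a long noncoding RNA whose loss leads to limb malformations that depend on the gene En1. It compared 2 libraries from embryos with a stop cassette insertion with 2 libraries from wild-type embryos, and both genotypes were on the strain background c57bl6.J X 129S6.sv. Where the cassette was inserted, its zygosity and the number of embryos per library are not stated in the labels, and each library holds forelimb and hindlimb together. The peak names give both wild-type lists the replicate number 1 with a sub-number, and nothing in the labels says that those libraries came from separate embryos, so the spread between them may be technical.

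MEIS and PBX proteins are homeodomain proteins of the TALE class that bind DNA together with each other and with HOX proteins. In the limb bud Meis1 and Meis2 are known for expression in the proximal domain, where retinoic acid maintains them and distal FGF signals restrict them, and MEIS proteins favour the nuclear localisation of their PBX partners. Shox2 is required for growth of the proximal long bone element (stylopod), and Irx3 and Irx5, IRX factors of the same TALE class, act early in limb bud patterning.

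The 4 deposited lists held 79083 and 107827 summits in stop cassette replicates 1 and 2, and 51701 and 68471 in wild-type replicates 1 and 2. The lists carry no read counts, so the depth is unknown. Each summit has a peak score that behaves as −log10 of a q-value. Scores were turned into percentiles within the summit's own list, from 0 for the weakest to 100 for the strongest, and values are such percentiles unless another unit is named. The list lengths differ by genotype, and this touches every difference between genotypes reported here. The labelled tissue was checked on promoter summits of marker genes: 4 of 6 limb mesenchyme markers had one in all 4 lists, where 57.5% of all protein-coding genes did, and Tbx5 had none in any. That count is near the share of all genes, so it does not identify the tissue. Surface ectoderm had 2 of 4 markers with a promoter summit in all lists, endothelium 1 of 4 and blood 2 of the 3 found. Neural crest and Schwann cells had 0 of 3, and muscle precursors 0 of 3. Beside the 57.5% of all genes, such small counts show neither presence nor absence of a cell type. In bulk tissue, fewer cells with an open region and less accessibility per cell cannot be told apart.

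The sequences on which the description turns are given here, from the genome assembly NCBIM37 (mm9), 5′ to 3′. Regions are printed on the plus strand and the Meis1 upstream window on the minus strand, which is the strand of that gene. Capitals mark matches, on either strand, to 1 of 5 short motifs: TGACAG for MEIS, TGATNNAT for PBX-HOX, TGATTGAC for PBX-MEIS, ACATGT for IRX and TAATTA for paired-type homeodomains. The PBX-HOX and PBX-MEIS patterns can overlap each other. The window inside Pbx3 (chr2:34228124-34228423) holds the strongest promoter summits of the set.
Pbx3 promoter region: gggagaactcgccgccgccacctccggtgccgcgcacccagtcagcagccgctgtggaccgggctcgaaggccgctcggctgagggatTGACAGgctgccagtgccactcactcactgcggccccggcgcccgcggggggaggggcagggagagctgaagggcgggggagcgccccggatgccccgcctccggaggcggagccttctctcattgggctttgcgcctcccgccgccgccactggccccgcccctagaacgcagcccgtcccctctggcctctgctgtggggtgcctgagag
The next pair are from Meis1, the 300 bases before its 5′-most start (chr11:18918962-18919261) and a stronger summit further upstream (chr11:18920318-18920617).
Meis1 upstream window: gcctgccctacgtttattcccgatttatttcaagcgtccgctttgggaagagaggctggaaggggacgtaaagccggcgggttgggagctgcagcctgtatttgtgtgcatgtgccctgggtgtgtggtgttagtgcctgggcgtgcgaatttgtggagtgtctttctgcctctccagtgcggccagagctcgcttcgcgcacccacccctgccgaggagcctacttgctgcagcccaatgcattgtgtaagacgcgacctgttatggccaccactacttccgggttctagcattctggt
Meis1 upstream summit: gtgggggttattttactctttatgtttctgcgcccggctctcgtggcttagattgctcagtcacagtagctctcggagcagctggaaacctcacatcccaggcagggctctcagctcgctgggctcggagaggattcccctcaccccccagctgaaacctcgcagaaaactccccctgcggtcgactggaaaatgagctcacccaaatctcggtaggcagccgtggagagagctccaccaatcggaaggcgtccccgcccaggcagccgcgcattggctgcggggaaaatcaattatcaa
The following windows are distal regions held by all 4 lists: the highest-ranked one of Meis1 (chr11:18816863-18817162), of Pbx3 (chr2:34105075-34105374) and of Irx5 (chr8:94984515-94984814), and for Shox2 an intergenic one (chr3:66743668-66743967), since its highest-ranked window overlaps a UTR.
Meis1 intron: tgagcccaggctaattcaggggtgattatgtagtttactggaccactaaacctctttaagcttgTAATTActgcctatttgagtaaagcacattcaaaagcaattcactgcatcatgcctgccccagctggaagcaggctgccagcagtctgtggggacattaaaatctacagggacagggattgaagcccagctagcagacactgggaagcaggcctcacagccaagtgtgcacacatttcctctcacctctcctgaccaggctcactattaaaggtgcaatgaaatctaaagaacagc
Pbx3 intron: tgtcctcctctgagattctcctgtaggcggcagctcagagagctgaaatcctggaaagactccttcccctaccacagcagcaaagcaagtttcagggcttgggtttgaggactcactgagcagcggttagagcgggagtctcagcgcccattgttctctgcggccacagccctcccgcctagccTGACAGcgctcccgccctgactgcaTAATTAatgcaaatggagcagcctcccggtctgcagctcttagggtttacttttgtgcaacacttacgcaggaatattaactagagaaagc
Irx5 distal: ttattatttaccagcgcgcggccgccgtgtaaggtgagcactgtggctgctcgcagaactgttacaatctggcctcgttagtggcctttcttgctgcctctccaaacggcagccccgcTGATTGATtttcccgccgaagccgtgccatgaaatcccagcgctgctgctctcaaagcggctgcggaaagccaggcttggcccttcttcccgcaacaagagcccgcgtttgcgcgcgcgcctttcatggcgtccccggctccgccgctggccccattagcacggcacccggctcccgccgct
Shox2 distal: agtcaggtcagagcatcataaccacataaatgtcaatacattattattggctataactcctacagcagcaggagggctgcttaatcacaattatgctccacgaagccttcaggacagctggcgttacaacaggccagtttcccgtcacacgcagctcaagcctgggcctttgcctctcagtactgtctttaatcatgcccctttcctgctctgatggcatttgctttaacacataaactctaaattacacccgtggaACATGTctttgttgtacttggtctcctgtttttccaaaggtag
The last is the highest-ranked distal region of Irx3 among those found with a stop cassette and absent from wild type (chr8:94396543-94396842).
Irx3 distal: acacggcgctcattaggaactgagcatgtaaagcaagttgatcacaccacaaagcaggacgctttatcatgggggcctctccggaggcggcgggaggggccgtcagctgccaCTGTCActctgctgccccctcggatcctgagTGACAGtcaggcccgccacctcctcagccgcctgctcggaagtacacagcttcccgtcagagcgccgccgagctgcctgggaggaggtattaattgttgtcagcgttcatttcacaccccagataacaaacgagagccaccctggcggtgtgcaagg

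Each of the 8 genes had a promoter summit in at least 1 list, as did 65.5% of all protein-coding genes. A missing call in a list of unknown depth does not show that a promoter is closed. A promoter summit was present in all 4 lists for Meis1, Meis2, Pbx2 and Pbx3, in 3 lists for Meis3, Shox2 and Irx3, and in 2 lists for Irx5. The 4 of 8 genes in all lists compare with 57.5% of all protein-coding genes. By list, 6 and 8 members had a promoter summit in stop cassette replicates 1 and 2, where 61.5% and 64.5% of all genes did. In wild-type replicates 1 and 2 the members numbered 6 and 7, and the shares of all genes were 59.1% and 61.6%. Those shares come to about 5 of 8 genes, and the members' counts by list lay 1 to 3 genes above that. The percentiles set the members lower: among genes with a promoter summit the median was 90.0, 92.6, 85.5 and 88.6 in the 4 lists, and 5 of 6, 7 of 8, 5 of 6 and 6 of 7 called members were under it. Pbx3 was the member above the median in each list.

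**Figure D1:**
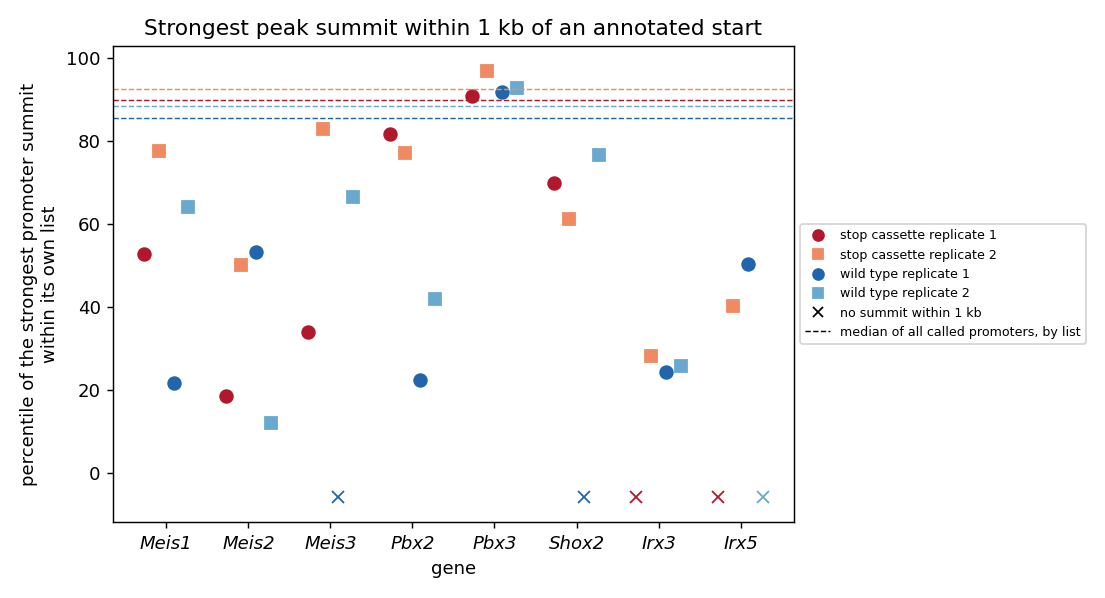
Percentile, within its own list, of the strongest summit within 1 kb of an annotated start (vertical axis) for each gene (horizontal axis), 1 point per library, with crosses below 0 where no summit was called. Dashed lines are the medians over all genes with a promoter summit in each list; the Pbx3 points lie at 90.8 to 96.9, and the other members' points lie under the median of their own list.

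The 3 Meis genes differed in where their strongest promoter summits lay, while the ranges of their percentiles over the lists overlapped. Meis1 (ENSMUSG00000020160.10, chr11:18780433-18918961, minus strand, 4 annotated starts) had promoter percentiles of 52.8 and 77.7 in the stop cassette lists and 21.5 and 64.2 in the wild-type lists. The stop cassette mean was 65.2 ± 17.6 (SD, n = 2) and the wild-type mean 42.8 ± 30.2 (SD, n = 2). The difference of 22.4 points was smaller than the wild-type SD, and the groups overlapped. It was 3.62 points when all lists were cut to their strongest 51701 summits, and 1.08 points without wild-type replicate 1. It was 9.97 when stop cassette replicate 2 was left out, 34.9 when stop cassette replicate 1 was, and 43.8 when wild-type replicate 2 was. The summits nearest to the start lay 28 to 70 bp upstream of it in all 4 lists, inside the upstream window printed above, and they were the strongest within 1 kb in 3 lists. In wild-type replicate 1 a summit 729 bp upstream was stronger.

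A stronger summit of Meis1 lay just outside the 1 kb window. It stood 1469 and 1484 bp upstream in the stop cassette lists and 1469 and 1603 bp upstream in the wild-type lists, within the window printed as the Meis1 upstream summit. Its percentiles were 65.4 and 81.4 in the stop cassette lists and 74.2 and 82.9 in the wild-type lists. With a promoter window of 2 kb, which takes in this summit, the difference for Meis1 became -5.14 points. The sign of the Meis1 difference therefore depended on which summit was read.

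Meis2 (ENSMUSG00000027210.11, chr2:115688800-115891575, minus strand) has 15 annotated starts. Its promoter percentiles were 18.4 in stop cassette replicate 1, at the median of the list in stop cassette replicate 2 (where both peak score and list median were 5.93), and 53.2 and 11.9 in the wild-type lists, giving 34.2 ± 22.4 and 32.6 ± 29.2 (SD, n = 2 each). The difference of 1.66 points was far within the spread, and each genotype held a high and a low value. These summits lay 20 to 63 bp downstream of the 5′-most start, in a UTR. A region at the adjacent start of the noncoding gene G630016G05Rik, centred 1311 bp upstream of the Meis2 start, was stronger in 3 of 4 lists, at 62.0 and 68.0 in the stop cassette lists and 37.3 and 71.9 in the wild-type lists. Both stop cassette lists also held a weak region at an internal Meis2 start, at 17.9 and 17.0, that was absent from wild type.

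Meis3 (ENSMUSG00000041420.9, chr7:16760729-16771853, plus strand) has 1 annotated start. Its promoter percentile was 33.9 and 83.0 in the stop cassette lists and 66.6 in wild-type replicate 2, and wild-type replicate 1 had no summit there. In the 3 lists that held it, the strongest summit lay 258 to 278 bp upstream of the start. The wild-type value fell between those of the stop cassette lists, so the genotypes were not separated.

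The PBX genes held both the highest promoter of the set and its widest difference between genotypes. Pbx3 (ENSMUSG00000038718.7, chr2:34026977-34228660, minus strand, 8 starts) stood at 90.8 and 96.9 in the stop cassette lists and 91.9 and 92.9 in the wild-type lists. Means were 93.9 ± 4.35 and 92.4 ± 0.730 (SD, n = 2 each), a difference of 1.49 points with overlapping groups. The strongest summit lay 428 to 436 bp downstream of the 5′-most start, in an intron, in 3 lists, and 251 bp downstream in wild-type replicate 2. Further summits 12 to 37 bp upstream of the start were called in every list, at 73.3 and 87.1 in the stop cassette lists and 70.3 and 88.8 in the wild-type lists. Pbx3 had 4 or 5 promoter summits in each list, where genes with a promoter summit in all lists had means of 2.48 to 3.14. Ranked among called promoters alone, Pbx3 stood at 52.8% and 76.5% in the stop cassette lists and 68.6% and 65.6% in the wild-type lists.

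Pbx2 (ENSMUSG00000034673.7, chr17:34728211-34734345, plus strand, 4 starts) had promoter percentiles of 81.7 and 77.1 in the stop cassette lists and 22.3 and 42.0 in the wild-type lists. The groups did not overlap. The stop cassette mean was 79.4 ± 3.26 and the wild-type mean 32.2 ± 13.9 (SD, n = 2 each), a difference of 47.3 points that exceeded the spread of either group. The peak scores behind these percentiles were 15.9 and 11.0 in the stop cassette lists and 3.44 and 4.93 in the wild-type lists. The summits lay 72 to 200 bp upstream of the start at position 34729208, within an intron of a longer Pbx2 transcript, in all 4 lists. With 2 libraries per genotype no permutation test on 1 gene can pass a threshold of 0.05, and none was made.

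The background for this comparison is high. Among the 12860 genes with a promoter summit in all lists, percentiles did not overlap and were higher in the stop cassette lists for 41.2%, and higher in the wild-type lists for 4.34%. Among the 4 members in all lists, Pbx2 was the 1 gene without overlap and 0 were higher in wild type, which is no more than the background share. The median difference over these genes was 3.32 points, and 77.1% of them, like all 4 members, had a difference above 0. By size, 99.6% of the genes had a smaller difference than Pbx2 and 50 had a larger one. The corresponding shares were 94.3% for Meis1, 37.5% for Meis2 and 36.2% for Pbx3.

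At equal list length the Pbx2 difference was still present, while the stricter score threshold of 5.83 ended it, because both wild-type scores lie under that threshold and Pbx2 then has no wild-type value. With the 51701 strongest summits of each list, the median difference over all genes was -0.0116 points, and 20.2% and 19.9% of genes did not overlap in the direction of stop cassette and wild type. Pbx2 then stood at 72.0 and 52.3 in the stop cassette lists and 22.3 and 23.1 in the wild-type lists, a difference of 39.4 points without overlap. Pbx3 stood at 85.9 and 93.6 against 91.9 and 90.6, a difference of -1.46 points. At this length 3 members had a promoter summit in all lists, against 54.7% of all genes. Meis2 was held by wild-type replicate 1 alone, at 53.2, as was Irx5, at 50.3. Irx3 was held by the wild-type lists alone, at 24.3 and 1.76. Meis3 was held by replicate 2 of each genotype, at 64.6 and 55.7, and Shox2 by the same 3 lists as at full length.

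Markers of other cell types were set beside Pbx2, against the 41.2% of genes that did not overlap and were higher in the stop cassette lists. The promoter of the adult beta globin gene Hbb-b1 stood at 92.2 and 86.7 in the stop cassette lists and 72.8 and 20.7 in the wild-type lists. That of Gata1, an erythroid transcription factor, stood at 74.5 and 56.4 against 10.4 and 26.0, and Ptprc, the pan-leukocyte marker CD45, had no promoter summit in any list. Of the 3 muscle precursor markers, 2 and 3 had a promoter summit in the stop cassette lists and 0 and 0 in the wild-type lists. The endothelial receptor gene Kdr stood at 82.2 and 90.3 against 70.2 and 81.7, while the other 3 endothelial markers and all 3 of neural crest and Schwann cells had none. Among ectoderm markers, Epcam stood at 72.0 and 74.9 against 75.2 and 80.6 and Cdh1 at 36.8 and 29.3 against 31.7 and 71.6, Trp63 was called in stop cassette replicate 2 alone, at 19.7, and Krt14 in no list. At equal list length Hbb-b1 stood at 88.1 and 72.3 in the stop cassette lists and 72.8 in wild-type replicate 1, and Gata1 at 60.9 and 9.03 against 10.4 and 1.99, so that their groups overlapped or lacked a value. None of the 3 muscle precursor markers then had a promoter summit in any list, and Kdr stood at 72.8 and 79.7 against 70.2 and 75.8. Whether the share of these cells has a part in the Pbx2 difference was not tested.

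**Figure D2:**
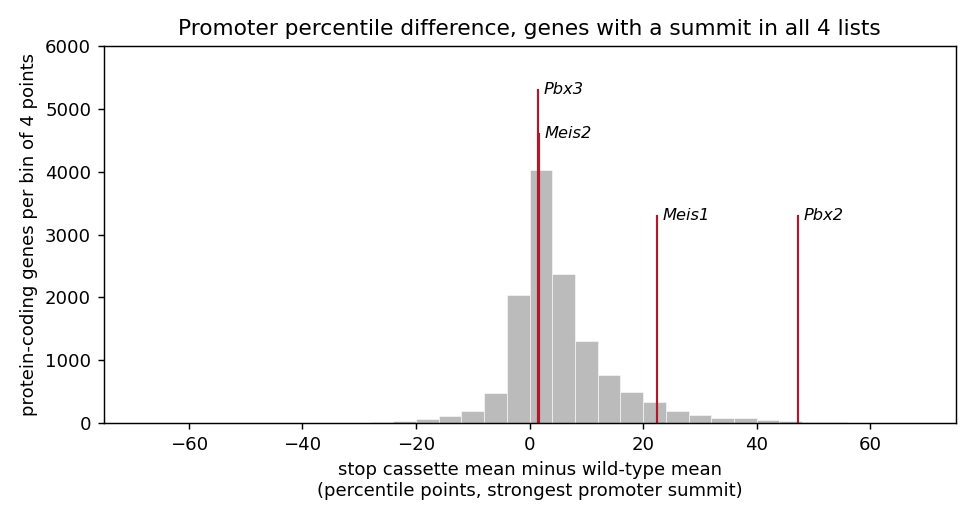
Number of protein-coding genes (vertical axis, bins of 4 points) by the stop cassette mean minus the wild-type mean of the promoter percentile (horizontal axis, percentile points), for the 12860 genes with a promoter summit in all 4 lists. Red lines mark the members: Pbx3 at 1.49 and Meis2 at 1.66 lie in the body of the distribution, Meis1 at 22.4 on its right flank and Pbx2 at 47.3 in its right tail; line height has no meaning.

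Shox2 and the IRX genes had promoters that some lists did not hold. Shox2 (ENSMUSG00000027833.8, chr3:66775649-66785693, minus strand, 6 starts) stood at 70.0 and 61.2 in the stop cassette lists and 76.6 in wild-type replicate 2, with no summit in wild-type replicate 1. These summits lay 2 to 9 bp from an annotated Shox2 start in coding sequence and 70 to 81 bp from a start of Rsrc1, the gene that runs from the opposite strand, so they cannot be assigned to either gene. A region at a further start of Rsrc1, centred 4129 bp upstream of the 5′-most Shox2 start, was stronger in every list that held a Shox2 promoter summit, at 85.9 and 91.0 in the stop cassette lists and 87.9 and 80.0 in the wild-type lists. Wild-type replicate 1 thus held the neighbouring start and no summit at Shox2.

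Irx3 (ENSMUSG00000031734.8, chr8:94322428-94325553, minus strand) had the weakest promoter present in 3 lists. It stood at 28.2 in stop cassette replicate 2 and at 24.3 and 25.8 in the wild-type lists, and stop cassette replicate 1 held no summit there. These summits lay 22 to 171 bp downstream of the single annotated start, in a UTR. The share of called promoters with a lower percentile was 3.04% in stop cassette replicate 2 and 4.34% and 3.63% in the wild-type lists. Irx5 (ENSMUSG00000031737.8, chr8:94881695-94885351, plus strand) had a promoter summit in stop cassette replicate 2 at 40.3 and in wild-type replicate 1 at 50.3, 42 and 70 bp upstream of its start. A region at the start of the neighbouring gene 4933436C20Rik, centred 1802 bp upstream of the Irx5 start, was stronger than the Irx5 promoter in both lists that held that promoter, and stood at 93.9 and 91.4 in the stop cassette lists and 81.2 and 89.2 in the wild-type lists.

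The rest of the TALE family and the partner genes of the proximodistal axis were read the same way. Of 11 other TALE genes, 8 had a promoter summit in all lists, where 57.5% of all genes did, and each of the 11 had one in at least 1 list, where 65.5% of all genes did. Pbx4 stood at 88.8 and 95.9 against 93.6 and 95.5, and Pknox1, a MEIS-related TALE gene, at 95.1 and 95.5 against 90.4 and 96.0. Both promoters ranked near Pbx3 and above every other member. Irx1 and Irx2 were called in all lists, at 11.0 to 66.5 and 62.2 to 86.8, Irx6 in 3 lists and Irx4 in stop cassette replicate 2 alone, at 3.09. Tgif2 stood at 85.3 to 87.7, Tgif1 at 42.5 to 85.0 and Pknox2 at 16.9 to 75.2. Mkx was called in 3 lists, at 17.4 to 48.9. Like most members, Irx1, Irx2, Tgif1 and Pknox2 lay under the median of called promoters in every list. So did Irx4, Irx6 and Mkx where they were called.

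Of 12 partner genes, 6 had a promoter summit in all lists, against 57.5% of all genes. Aldh1a2, which makes retinoic acid, stood at 40.7 and 51.9 in the stop cassette lists and 1.96 in wild-type replicate 2, and wild-type replicate 1 had no summit there. Cyp26b1, which degrades retinoic acid, stood at 31.7 and 43.4 in the stop cassette lists and had no wild-type summit. Hoxa11, expressed in the middle segment of the limb, had no promoter summit in any list. Gli3, a transcription factor of hedgehog signalling, was the highest of the partners, at 79.0 and 92.5 against 85.2 and 91.1. Hoxa9, like Cyp26b1, was called in the stop cassette lists alone, at 14.0 and 15.0. Of the 6 in all lists, Hoxd11 was higher in the stop cassette lists without overlap, as were 41.2% of genes. The genotypes overlapped in Hoxa13, Hoxd9, Hoxd13, Hand2 and Gli3. The stop cassette lists are longer, and the partner genes were not read at equal list length.

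The sequence before the 5′-most start differed in composition among members. Over the 300 bases upstream, GC content ran from 56.3% at Pbx2 and Irx3 to 69.3% at Irx5. All 8 were above the median of 53.3% over all protein-coding genes. Over genes with a promoter summit in all lists the median was 58.7%, and only Meis2, Meis3 and Irx5 were above that. The ratio of observed to expected CpG was 0.268 at Pbx2, 0.498 at Meis3 and 0.619 to 0.845 at the other 6 genes. Medians were 0.701 for genes with a promoter summit in all lists and 0.165 for genes with none. Irx5, with the highest ratio, was called in 2 lists, and Pbx2, with the lowest, in 4. The strongest Pbx2 summit in each list lay nearest to an internal start and 797 to 925 bp downstream of the 5′-most one. A weaker Pbx2 summit in stop cassette replicate 1, at 17.4, was nearest to the 5′-most start, 383 bp downstream of it. None of the 5 motifs occurred in the upstream 300 bases of any member. Over all genes those windows held TGACAG in 17.6%, TGATNNAT in 8.77%, TGATTGAC in 0.720%, ACATGT in 5.03% and TAATTA in 5.72%.

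With promoters included, the 8 landscapes together held 97 and 151 summits in the stop cassette lists and 67 and 89 in the wild-type lists. As a share of all summits in the list these were 0.123% (95% Wilson interval 0.101 to 0.150) and 0.140% (0.119 to 0.164) in the stop cassette lists. In the wild-type lists they were 0.130% (0.102 to 0.165) and 0.130% (0.106 to 0.160). The intervals overlapped, and they cover counting error only. Means were 0.131% ± 0.0123 and 0.130% ± 0.000276 (SD, n = 2 each), a difference of 0.00156 percentage points, with p = 1.00 in a two-sided exact permutation test. With 6 assignments of the libraries that test cannot reach 0.05. The difference was smaller than the stop cassette SD.

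Density differed between gene-rich and gene-poor windows. Meis3 and Pbx2 lie among 9 and 13 other protein-coding genes, and their windows held 61.6 to 118 and 72.8 to 97.0 summits per Mb. The windows of Meis1, Meis2, Pbx3, Shox2, Irx3 and Irx5 hold at most 1 other protein-coding gene. The window of Irx3 had the fewest summits per Mb in 3 of 4 lists, the exception being stop cassette replicate 1, where Pbx3 and Meis1 had fewer. The margin was narrow in stop cassette replicate 2, at 39.4 against 39.8 for Pbx3. It was narrow too in wild-type replicate 1, at 14.8 against 14.9 for Meis2 and Pbx3. The Irx3 window held 7 and 8 summits in the stop cassette lists and 3 and 1 in the wild-type lists. In wild-type replicate 2 that is 4.92 per Mb, where the median window of a protein-coding gene held 44.7. Pbx3 had 6 and 16 summits in the stop cassette lists and 6 and 12 in the wild-type lists over a window of 402 kb, or 14.9 to 39.8 per Mb.

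**Figure D3:**
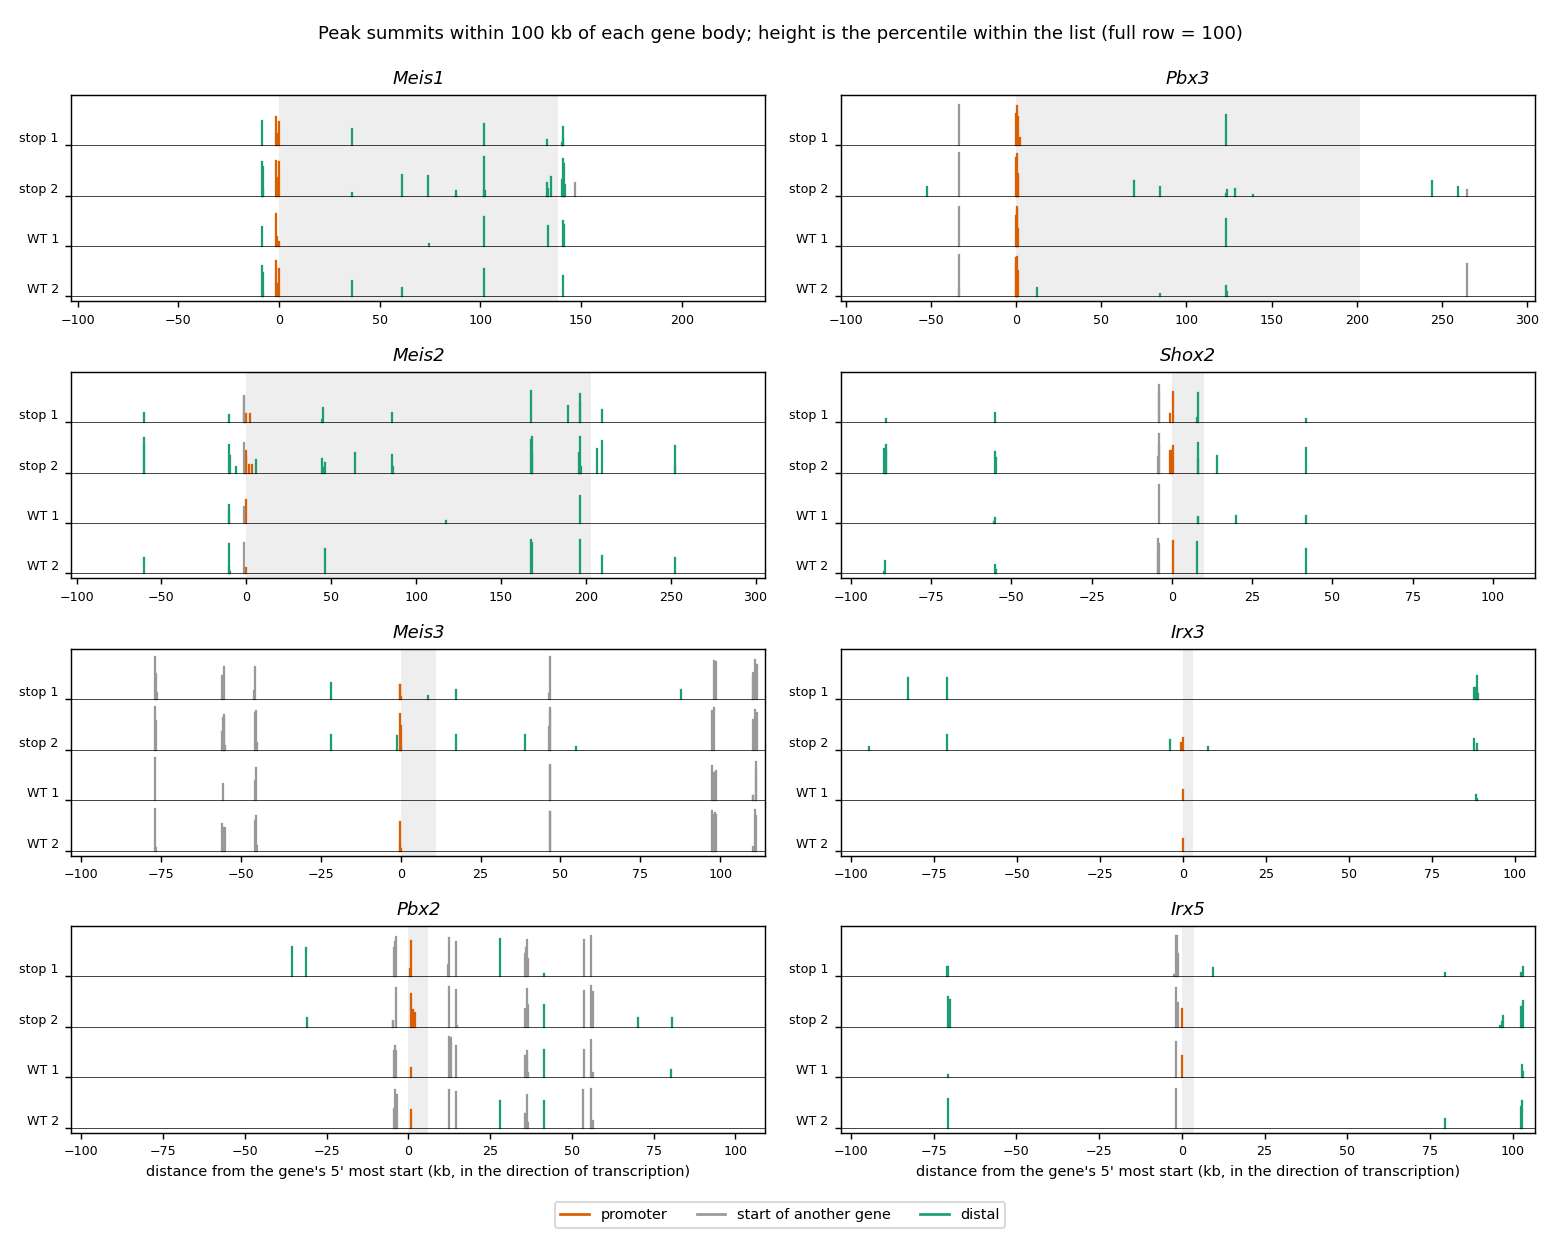
Summits within 100 kb of each gene body, 1 row per list (WT is wild type), with the distance from the gene's 5′-most start in kb along the direction of transcription (horizontal axis) and bar height equal to the percentile, a full row being 100. Colour is the class of the merged region and grey shading the gene body. Green distal summits line up across all lists at 3 of 11 distal regions in Meis1 and 3 of 6 in Shox2. Grey summits at other genes' starts fill the Meis3 and Pbx2 rows, and the wild-type rows of Irx3 hold 3 and 1 summits.

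Summits extended by 250 bp on each side and merged across lists gave 101 regions in the landscapes. Of these, 13 were at a member's own start, 19 at the start of another gene and 69 were distal, more than 1 kb from every annotated start. All 4 lists held 32 of the 101, against 32.0% of the 74669 regions of the genome. By class, 4 of 13 promoter regions, 16 of 19 at other genes' starts and 12 of 69 distal regions were in all lists. Genome-wide, 19.0% of distal regions were in all lists, close to the 12 of 69. The genome-wide share for regions near an annotated start was 71.5%, with the 4 of 13 below it and the 16 of 19 above it. The distal regions held by all lists had a median mean percentile of 46.4 near the members and 61.2 genome-wide.

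Regions present in 1 genotype were counted next. Stop cassette-specific regions, held by both libraries of that genotype and by none of wild type, numbered 8 of 101, against 10.0% genome-wide, and 7 of the 69 distal ones, against 11.7%. Regions specific to wild type in the same sense numbered 0, against 0.313% genome-wide. At equal list length these counts were 0 and 3, of 62 regions. Genome-wide shares were not computed at equal length or with a library left out, and those of the full lists do not apply there. With stop cassette replicate 1 left out the 8 became 36, with stop cassette replicate 2 left out 17, and leaving out wild-type replicate 2 gave 15, since 1 list then stands for a genotype. Stop cassette replicate 2, the longest list, was the sole holder of 23 of the 69 distal regions, against 27.1% genome-wide. With all libraries at their full length, these counts lay near their genome-wide shares.

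**Figure D4:**
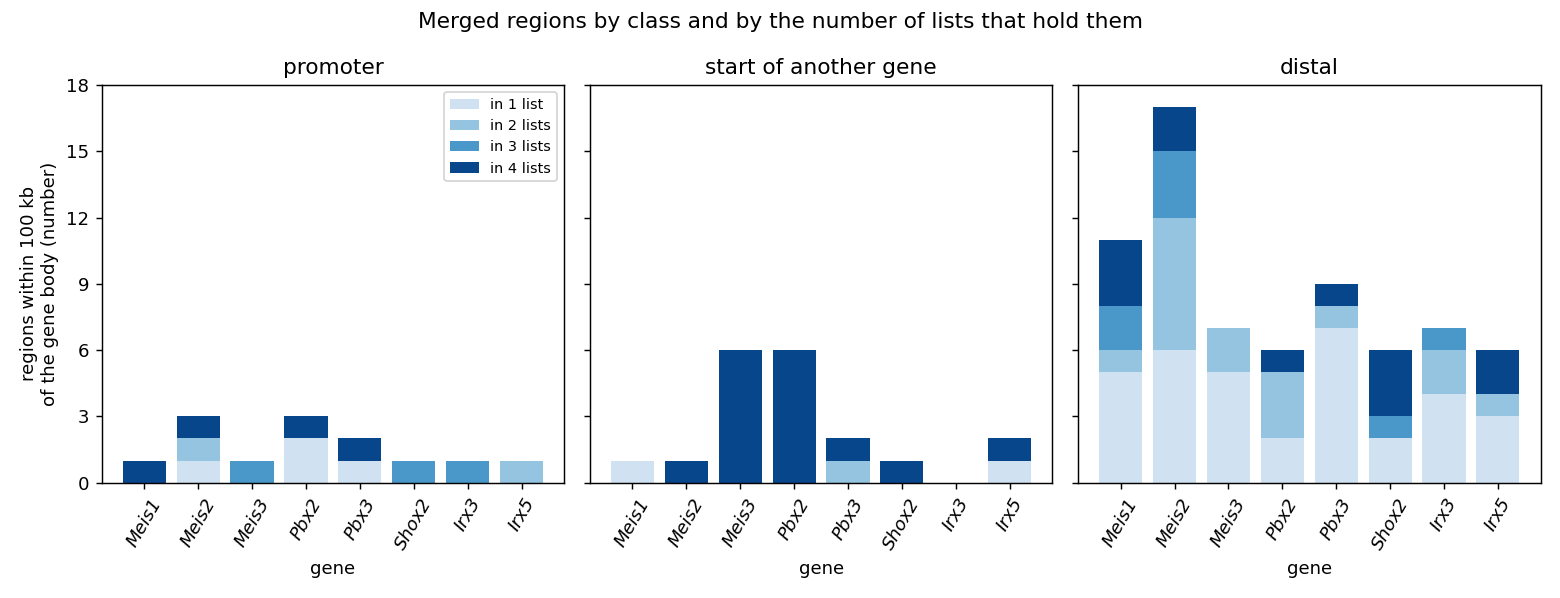
Number of merged regions within 100 kb of each gene body (vertical axis) by gene (horizontal axis), class (panel) and number of lists that held them (shade). Regions at other genes' starts near Meis3 and Pbx2 were in 4 lists, 6 of 6 in each, while 34 of the 69 distal regions were in 1 list.

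Meis1 and Meis2, with the 11 and 17 distal regions of their long windows, had 32.5 and 42.2 per Mb, and the other 6 genes had 22.4 to 34.5 per Mb. The highest-ranked distal region of Meis1 in all lists lay in an intron, 94993 bp downstream of the nearest start, and its strongest summits fell within 98 bp of each other. Its percentiles were 49.1 and 90.4 in the stop cassette lists and 66.6 and 64.6 in the wild-type lists. The stop cassette values lay on both sides of the wild-type pair. The printed Meis1 intron sequence holds TAATTA and none of the other 4 motifs. The other Meis1 distal regions in all lists lay 8498 bp upstream, at 56.5 and 78.4 against 44.5 and 70.2, and beyond the 3′ end of the gene, at 42.9 and 85.7 against 59.2 and 47.7. In each of these regions the genotypes overlapped.

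Of the Meis2 distal regions in all lists, 1 lay 10196 bp upstream of the gene, in an intron of G630016G05Rik. It stood at 16.9 and 64.3 in the stop cassette lists and 41.6 and 67.7 in the wild-type lists, with overlapping groups, and the 300 bases at its centre hold TGATNNAT. An intronic Meis2 region centred at position 115723568 stood at 72.5 and 84.0 in the stop cassette lists and 76.9 in wild-type replicate 2, and wild-type replicate 1 did not hold it. Both regions were chosen after their values were seen. The highest-ranked of the 2 distal Meis2 regions held by the stop cassette lists alone stood at 33.5 and 31.9.

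Meis3 had 7 distal regions and 0 of them in all lists. The 6 regions of its window that all lists held were at starts of other genes, such as Napa at 99.0 and 99.2 in the stop cassette lists and 98.6 and 97.4 in the wild-type lists. Both wild-type lists held 0 of the 7 distal regions, where they held 16606 and 25015 of the 56075 distal regions genome-wide. The stop cassette lists held 4 and 5 of the 7, and 29551 and 46367 genome-wide. The highest-ranked Meis3 distal region in both stop cassette lists, in an intron of Slc8a2, stood at 36.8 and 34.7. Pbx2 was alike in that 6 of its 8 regions in all lists were at other genes' starts. Its 1 distal region in all lists overlapped a UTR of Prrt1 and stood at 4.79 and 49.9 in the stop cassette lists and 62.7 and 63.0 in the wild-type lists, below the wild-type pair and so opposite in direction to the Pbx2 promoter. An intergenic region 31153 bp upstream, in both stop cassette lists alone, stood at 65.9 and 19.7.

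Pbx3, in contrast to its promoter, had 1 of 9 distal regions in all lists, and 6 of the 9 were in stop cassette replicate 2 alone. The shared region lay in an intron, at 69.4 and 11.8 in the stop cassette lists and 63.8 and 24.4 in the wild-type lists. Both replicates 1 were high and both replicates 2 were low. The printed Pbx3 intron window holds TGACAG and TAATTA, and the Pbx3 promoter window holds TGACAG.

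Shox2 had 3 of 6 distal regions in all lists. The highest-ranked overlapped a coding exon of Shox2 and its UTR, at 67.0 and 69.5 in the stop cassette lists and 12.9 and 72.8 in the wild-type lists. Wild-type replicate 1 was the low value, as it was the list without a Shox2 promoter summit. The intergenic region printed above, 38537 bp downstream of the nearest start, stood at 7.55 and 57.7 in the stop cassette lists and 16.0 and 56.8 in the wild-type lists, with its summits within 39 bp. It holds ACATGT. The third, in an intron of Rsrc1, stood at 21.6 and 47.8 against 11.9 and 20.7. There the genotypes did not overlap, by a narrow margin of 21.6 against 20.7, and no genome-wide share stands beside that.

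The distal regions of the IRX genes were intergenic in 6 of 7 cases at Irx3 and 6 of 6 at Irx5. No Irx3 region of any class was in all 4 lists. The highest-ranked distal Irx3 region in the stop cassette lists alone lay 71139 bp upstream, at 49.1 and 34.7, and its printed window holds TGACAG on each strand. Irx5 had 2 distal regions in all lists. That at the edge of the window, 102969 bp downstream of the start, stood at 21.6 and 58.8 in the stop cassette lists and 28.5 and 60.9 in the wild-type lists, and its window holds TGATNNAT as printed. The region 70822 bp upstream stood at 21.6 and 69.8 against 4.54 and 67.4. In both Irx5 regions, replicate 2 of each genotype was above replicate 1, and the genotypes overlapped.

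Motifs were counted in the 300 bases at the centre of every distal region. TGACAG occurred in 21 of the 69 member regions (30.4%) and in 20.7% of the 56075 distal regions of the genome. TGATNNAT occurred in 13 (18.8%) against 10.6%, TAATTA in 8 (11.6%) against 9.99%, and ACATGT in 7 (10.1%) against 8.46%. TGATTGAC was in 0 of 69, against 0.672%. Among the 12 distal regions in all lists, TGACAG was in 1, TGATNNAT in 3, TAATTA in 3 and ACATGT in 2. Of the 21 member regions with TGACAG, 1 was thus in all lists. Genome-wide shares for distal regions in all lists were not computed, so these counts have none beside them. A match describes letters in a window and does not show that the factor binds there.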

How the data were processed

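ATAC-seq was performed on fixed limb cells of 2 stop cassette and 2 wild-type libraries. The authors deposited 1 list of 1 bp summits per library. The fifth column behaves as −log10 of a q-value, a reading that rests on the values as deposited: the lowest corresponds to a q-value of 0.05. Per the submitters' processing notes, Bowtie2 2.2.6 and Picard were used with build mm9. The deposited peak names record removal of duplicate and mitochondrial reads and a mapping quality of 30. The peak caller, the read shift and any control are not given in the sources used here.

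Summits were matched to GENCODE M1 on NCBIM37, and 0 lay beyond the end of any of 21 chromosomes compared. Column 5 was ranked within each list, with ties at their mid rank (19.3% to 22.4% of a list's summits share their score with at least 100 peaks). Summits extended by 250 bp were merged at an overlap of at least 1 bp. Shares carry Wilson intervals at 95% confidence and were compared by a two-sided exact permutation test over 6 assignments, whose smallest possible p is 0.333. Regions named were, per gene, the highest-ranked distal region in all lists and the highest-ranked stop cassette-specific one; all others, regions at neighbouring genes' starts included, were chosen after their values were seen. A gene of a comparison list and a distal region that these rules name are not reported here. Alternatives were promoter windows of 500 bp and 2 kb, other landscape windows and extensions, equal list length, a stricter score, leaving out each library, and a replicate block. Scripts were tested on simulated data (Python 3.11.15, numpy 2.4.6, scipy 1.17.1). The members and lists were chosen with earlier results of these data known.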

Additional observations from a re-analysis of the deposited data

How the results depend on the processing

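The depth is unknown, the exact permutation test on 2 libraries per genotype cannot reach 0.05, and the stricter score (above 5.83) carries depth differences between lists. The cause of each change was not tested, except that the equal length and the stricter score leave fewer summits. Of the alternative values, 62 stayed within their limits, 23 moved and 8 reversed. The limits were the same sign for the landscape share and a bounded fold change for counts. For a promoter difference they were the same sign and a change within the larger group SD. A value within limits can still differ in size: the Meis1 difference of 1.08 without wild-type replicate 1, against 22.4, counts as such. With the stricter score, 1 member had a promoter summit in all lists, 0 did not overlap, and there were 51 regions, 18 of them in all lists and 1 stop cassette-specific. At equal length there were 62 regions, with 0 specific to the stop cassette and 3 to wild type. A 2 kb promoter window gave 2 members without overlap, an extension of 100 bp gave 162 regions with 1 specific to wild type, and a 200 kb landscape gave 13 and 1 regions specific to stop cassette and wild type. Leaving out 1 library, members without overlap numbered 2 to 4, regions specific to the stop cassette 10 to 36 and those specific to wild type 0 to 4, since 1 list then stands for a genotype. Members without overlap were 4 without stop cassette replicate 1, 2 without the other stop cassette library and 3 without either wild-type one. Apart from genes at equal length, shares over all genes and regions were not computed under these alternatives. These counts therefore have no background beside them.

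The difference in landscape share reversed to -0.0174 at equal length and -0.0231 with the stricter score, and ran from -0.00713 to 0.0103 without 1 library. Without stop cassette replicate 2 it was -0.00713. The Meis1 difference was -5.14 with the 2 kb window. That of Meis2 ran from -19.0 to 22.3 without 1 library, being -14.2 when stop cassette replicate 2 was left out and -19.0 when wild-type replicate 2 was. That of Pbx3 was -1.46 at equal length and ran from -1.59, without stop cassette replicate 2, to 4.57. The Pbx2 difference stayed between 37.5 and 57.1 and had no value with the stricter score. With a replicate block the share difference was 0.00156 (exact sign-flip test p = 1.00, smallest possible 0.5), and the pairs, which share only a number, gave -0.00694 and 0.0101.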
